A study of Mus musculus with 6 samples.

Results

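Neat1 is a long noncoding RNA of the cell nucleus that builds paraspeckles, bodies that hold RNA-binding proteins and certain RNAs. It had 44 of the 55449 crosslinking peaks of an eCLIP experiment on the RNA-binding protein ZFP36L2, in which RNA pulled down with the protein is sequenced. The 44 are all peaks whose gene name by the authors' deposited table was Neat1, alone (42 peaks) or with a second name (2 peaks). Neat1 was chosen by these same fold changes and adjusted p-values, which stood high in this table, so the values given for it are a description and carry no test of their own.

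The cells were MLTC-1, a mouse Leydig cell tumour line grown in culture, labelled as a mouse testicular line. All 6 libraries came from cells exposed to ultraviolet light (254 nm, 400 mJ per cm2), which ties proteins to the RNA they touch. They formed 4 groups, namely immunoprecipitation (IP) with an antibody against ZFP36L2 (2 libraries), the input of those IPs (2 libraries), IP with rabbit IgG (1 library) and the input of that IP (1 library). The deposited values are 1 log2 fold change of ZFP36L2 over IgG, 1 p-value and 1 adjusted p-value for each peak, without a value for any library, so depth and the spread between libraries are unknown. The IgG arm has 1 IP library, so the antibody and that library cannot be told apart. Of 11 Leydig cell markers, 7 had a peak in the table, among them Cyp11a1, Star and Lhcgr. A peak in the table need not be enriched with ZFP36L2, and a list of peaks gives no expression level. A peak was also found for 1 of 6 Sertoli cell markers, 1 of 5 germ cell markers and 5 of 5 macrophage markers.

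As background, the Neat1 gene gives a pair of RNAs that start at the same place. The short one, Neat1_1, ends at an early poly(A) site. The long one, Neat1_2, runs past that site, and it is the long RNA that paraspeckles need, with the proteins SFPQ and NONO bound along it. ZFP36L2 belongs to the family of tristetraprolin, CCCH zinc finger proteins that bind AU-rich elements of mRNAs and speed their decay. In bulk libraries fewer cells and less RNA per cell cannot be told apart, and ratios of ZFP36L2 over IgG measure neither.

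Neat1 lay on chromosome 19 from 5824708 to 5845480 in the RefSeq annotation of GRCm38.p6, the same build as the mm10 of the files, a span of 20773 bases. All 44 peaks were on the minus strand, so the RNA starts at the high coordinate, and positions along it are counted here from base 1 at that end. Every peak had the class "Other" in the table, its class for noncoding RNA among others. The first peak began at base 378 and the last ended at base 20668, 105 bases before the end of the gene.

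All 44 Neat1 peaks were higher with ZFP36L2 than with IgG, and none was lower. Over the whole table, 2.22% of peaks were enriched, meaning an adjusted p under 0.05 with a log2 fold change that reached 1, and 5.44% were depleted, meaning the same p with -1 or less. For the Neat1 peaks, the authors' deposited table held log2 fold changes that ran from 2.87 to 5.45 with a median of 3.98, against a median of -1.06 over all peaks. These are ratios of 7.31-fold at the lowest, 15.8-fold at the median and 43.7-fold at the highest. With all values centred on the table's median, they were 15.2-fold, 32.9-fold and 91.1-fold. Centring takes the median peak as unchanged, which was not tested. Between 3 and 4 there were 21 peaks, between 4 and 5 another 17, with 4 above that and 2 below 3. All 44 thus lay on one side of 0, in a table where 76.2% of values were below 0. Without Neat1, 1187 of 55405 peaks were enriched (2.14%).

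**Figure D1:**
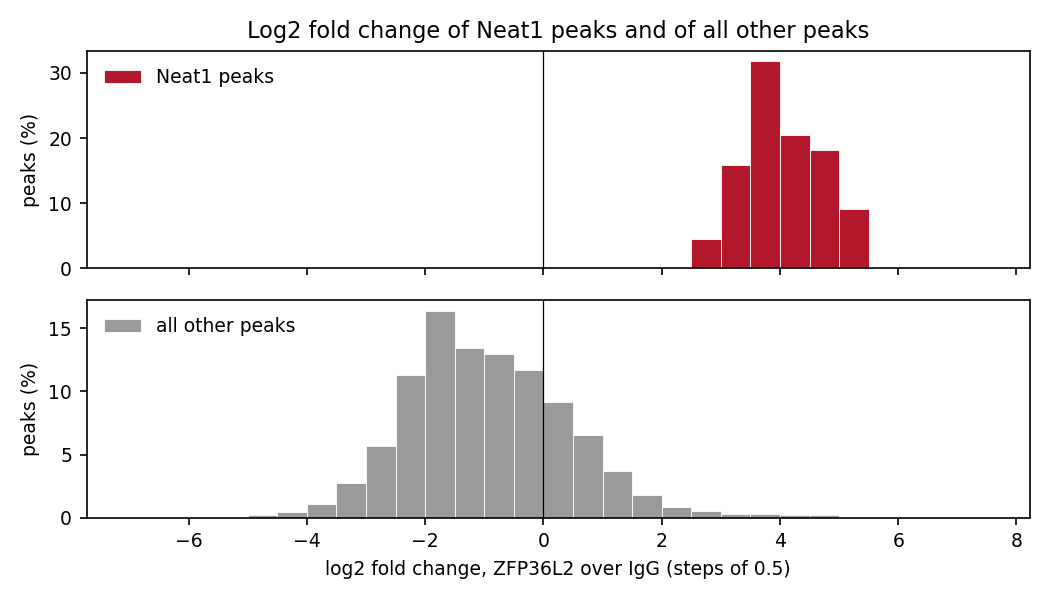
Log2 fold change of ZFP36L2 over IgG (horizontal axis, steps of 0.5) for the 44 Neat1 peaks (upper panel) and all 55405 other peaks (lower panel), each as a percentage of its own peaks. The Neat1 peaks sit between 2.87 and 5.45, and most other peaks lie below 0.

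Neat1 gave 44 of the 89 enriched peaks in that class, where 3.36% of 2645 peaks were enriched. The remaining 2601 peaks of the class were enriched in 45 cases (1.73%), against 2.14% of all peaks without Neat1, and their median log2 fold change by the authors' deposited table was -1.35. Neat1 alone made up 3.57% of all 1231 enriched peaks and 0.0794% of all peaks.

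The isoforms set the way the RNA was divided. No annotation of the end of Neat1_1 was used here, and its length was taken from general knowledge as about 3.2 kb. No peak lay between base 3097 and base 3594, so any length from 3097 to 3593 bases divides the peaks alike. Downstream of it, 17 peaks lay in the 17573 bases that only Neat1_2 contains, and 27 lay in the 3200 bases that both isoforms share. That is 0.967 peaks per kb in the long-only part against 8.44 per kb in the shared part. Peaks covered 479 bases of the long-only part (2.73%) and 1142 bases of the shared part (35.7%). The shared part, 15.4% of the length, thus held 61.4% of the peaks and 70.5% of the bases in peaks. RNA of both isoforms can give reads there, and the amount of each isoform was not measured.

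**Figure D2:**
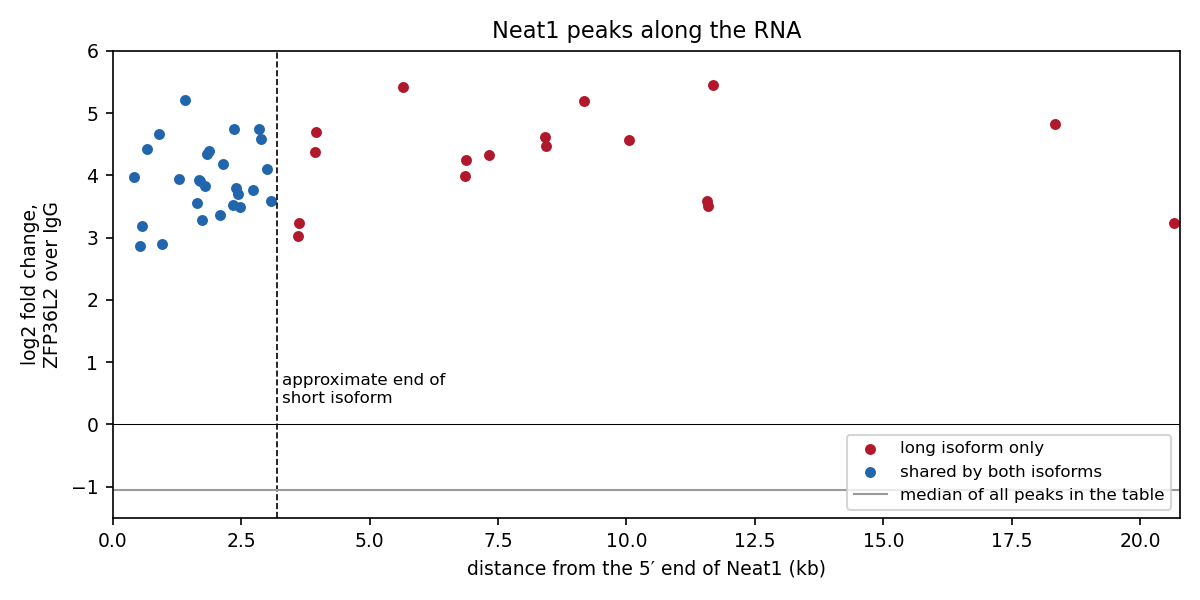
Log2 fold change of ZFP36L2 over IgG (vertical axis) of each Neat1 peak against its distance from the 5′ end (horizontal axis, kb), with points at the peaks' centres, the 17 long-only peaks in red, the 27 shared peaks in blue, a dashed line at 3.2 kb and a grey line at the table's median of -1.06. Peaks crowd into the first 3.2 kb, but their heights overlap with those of the long-only part.

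In height the ranges of the parts overlapped. Long-only peaks had log2 fold changes of 3.03 to 5.45 with a median of 4.38 by the authors' deposited table, and shared peaks had 2.87 to 5.21 with a median of 3.91. The difference of the medians was 0.47, and the SD among single peaks was 0.76 in the long-only part and 0.59 in the shared part. A value of 4 or more was reached by 11 of 17 long-only peaks (64.7%) and by 10 of 27 shared peaks (37.0%), and 3 of the 4 peaks above 5 were long-only. No test of this difference was made, since peaks of one RNA share their libraries and are not replicates. Long-only peaks were also shorter, with a median length of 27 bases against 43 for shared peaks.

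Along the shared part, the 27 peaks joined into 16 separate regions, with no gap between them longer than 232 bases. Nearest to the 5′ end, the peak at bases 378 to 432 (5845049 to 5845103 on chromosome 19) had a log2 fold change of 3.97 by the authors' deposited table (adjusted p = 5.9e-52). Next came 2 touching peaks that also carry the name Gm28006, an identifier the table pairs with Neat1 here. Their values by the authors' deposited table were 2.87 (adjusted p = 1.9e-26) at 5844933 to 5844969 and 3.18 (adjusted p = 2.1e-40) at 5844889 to 5844932. The first of them was the lowest of all 44. A peak at bases 638 to 696 followed, with 4.43 by the authors' deposited table.

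Heights changed sharply within a short distance at base 908. A peak of 7 bases at 5844573 to 5844579 had 4.67 by the authors' deposited table, and the peak of 103 bases that touches it, at 5844470 to 5844572, had 2.89 (adjusted p = 4.3e-46). This step of 1.78 was the largest between touching Neat1 peaks. Over the 16 touching pairs of Neat1 the median step was 0.32. Over the 201 touching pairs elsewhere in the table with both peaks enriched, the median step was 0.31 and the largest 2.65.

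Between bases 1244 and 1904 the log2 fold changes ran from 3.29 to 5.21 by the authors' deposited table. The peak at 5844165 to 5844237 had 3.94 by the authors' deposited table and the third-smallest adjusted p of the gene (2.7e-85). A peak of 15 bases at 5844072 to 5844086 reached 5.21 by the authors' deposited table (adjusted p = 3.2e-56), the highest of the shared part. The next 2 regions were runs of touching peaks. From base 1612 to 1743, 4 peaks had 3.56, 3.93, 3.91 and 3.29 by the authors' deposited table, and from base 1779 to 1904, 3 peaks had 3.83, 4.35 and 4.39.

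The rest of the shared part was of the same kind. A pair of touching peaks from base 2051 to 2179 had 3.36 and 4.18 by the authors' deposited table. A run of 4 peaks from base 2327 to 2444 had 3.52, 4.75, 3.80 and 3.70 there, the first and second of them 17 bases long each, again per the authors' deposited table. After it stood 6 single peaks, which by the authors' deposited table had 3.49, 3.76, 4.74, 4.59, 4.10 and 3.59 in the order of the RNA. Of these, the peak at bases 2858 to 2914 (5842567 to 5842623) had the second-smallest adjusted p of all Neat1 peaks, 1.7e-87 by the authors' deposited table. The last of the 6, at bases 3051 to 3097, was the last peak before the point where Neat1_1 ends.

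**Figure D3:**
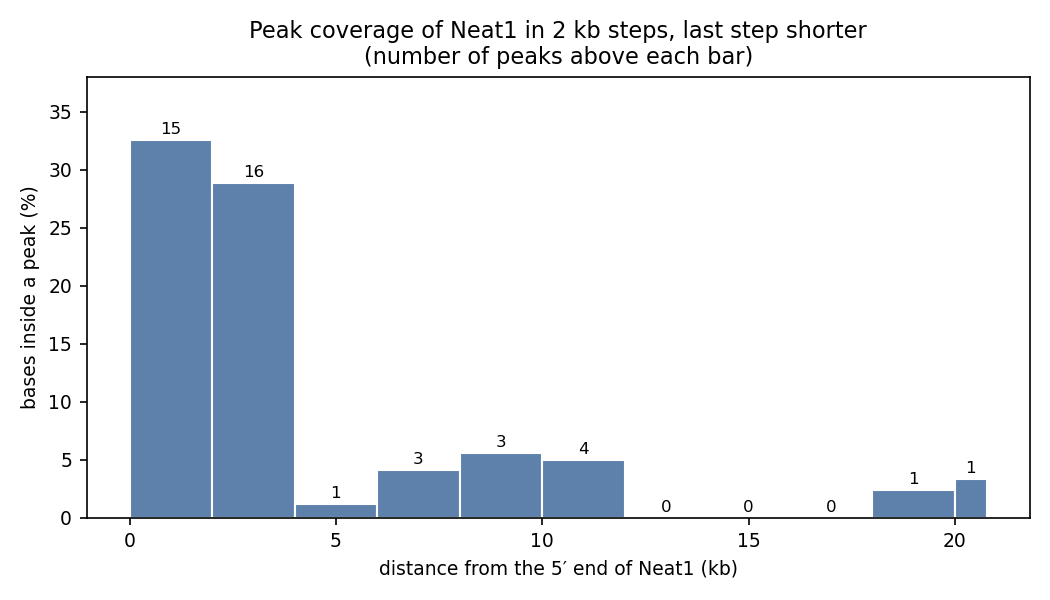
Percentage of bases inside a peak (vertical axis) in steps of 2 kb from the 5′ end of Neat1 (horizontal axis, kb; the last step is shorter), with the number of peaks above each bar. The first 2 steps hold 15 and 16 peaks, and the steps from 12 to 18 kb hold none.

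Past the short isoform, peaks thinned out without falling in height. From 3.2 to 12 kb there were 15 peaks in 10 regions. The first pair, at bases 3594 to 3638, was low, with 3.03 (adjusted p = 6.6e-27) and 3.23 by the authors' deposited table. The next pair, at bases 3921 to 3961, had 4.38 and 4.70 by the authors' deposited table, and its second peak (5841520 to 5841547) had an adjusted p of 8.9e-80. Low and high pairs thus stood 282 bases apart.

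Some of the highest values of the RNA lay in the middle of Neat1_2. The peak at bases 5628 to 5651 (5839830 to 5839853), alone in its 2 kb step, had 5.42 by the authors' deposited table and the smallest adjusted p of the gene (3.2e-90). A pair at bases 6840 to 6893 had 3.99 and 4.25, a single peak at bases 7315 to 7343 had 4.33, and a pair at bases 8397 to 8451 had 4.61 and 4.47, all per the authors' deposited table. The peak at bases 9149 to 9205 (5836276 to 5836332) had 5.19 by the authors' deposited table (adjusted p = 4.1e-82). At bases 10052 to 10057 stood the shortest peak, 6 bases long, with 4.56 by the authors' deposited table. A pair at bases 11541 to 11606 had 3.58 and 3.51, and 70 bases on, the peak at bases 11677 to 11704 (5833777 to 5833804) had 5.45, the highest of the gene, by the authors' deposited table (adjusted p = 7.4e-79).

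After it came the longest stretch with no peak, 6615 bases. Only 2 peaks lay beyond. The one at bases 18320 to 18367 (5827114 to 5827161) had 4.82 by the authors' deposited table (adjusted p = 6.3e-69), the fifth-highest value of the gene. The last, at bases 20643 to 20668 (5824813 to 5824838), near the 3′ end of Neat1_2, had 3.23 by the authors' deposited table (adjusted p = 1.0e-49). Whether reads could be placed in the empty stretch is not known, since the table lists peaks and not coverage.

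Across the 44 peaks, height followed position and length weakly. As a description over peaks that share libraries and often touch, the log2 fold change had a Spearman's rho of 0.28 (Pearson's r = 0.21) with distance from the 5′ end and a rho of -0.24 (r = -0.27) with peak length. Touching peaks made up 27 of the 44 (61.4%), against 53.2% of peaks in the whole table, and the median Neat1 peak was 29.5 bases long, against 35 over all peaks. The 44 peaks formed 28 regions, 17 of them single peaks, and the regions covered 1621 bases, 7.80% of the gene. The peaks are therefore fewer than 44 separate sites.

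Neat1 stood out more by its adjusted p-values than by its fold changes. By log2 fold change its best peak ranked 51 and its lowest 778 among all peaks of the authors' deposited table, with 4 of the 44 in the first 100 and 31 in the first 500. By adjusted p its best peak ranked 6 and its lowest 118, with 16 among the first 25 and 42 among the first 100. The 688 other peaks with a log2 fold change in the range of Neat1 had a median −log10 adjusted p of 8.03 (quartiles 4.79 and 12.1), against a median of 57.6 and a lowest value of 25.73 for Neat1, by the authors' deposited table. Of those 688 peaks, 55 reached the lowest Neat1 value and 10 reached its median. At a like fold change, the adjusted p-values of Neat1 peaks were thus smaller than those of most other peaks, and the number of reads behind each is not known. The trait was not particular to Neat1. Peaks of Cyp11a1 reached a −log10 adjusted p of 156.26, with a median of 38.9 over 35 peaks, by the authors' deposited table. The highest value of Neat1 was 89.50.

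**Figure D4:**
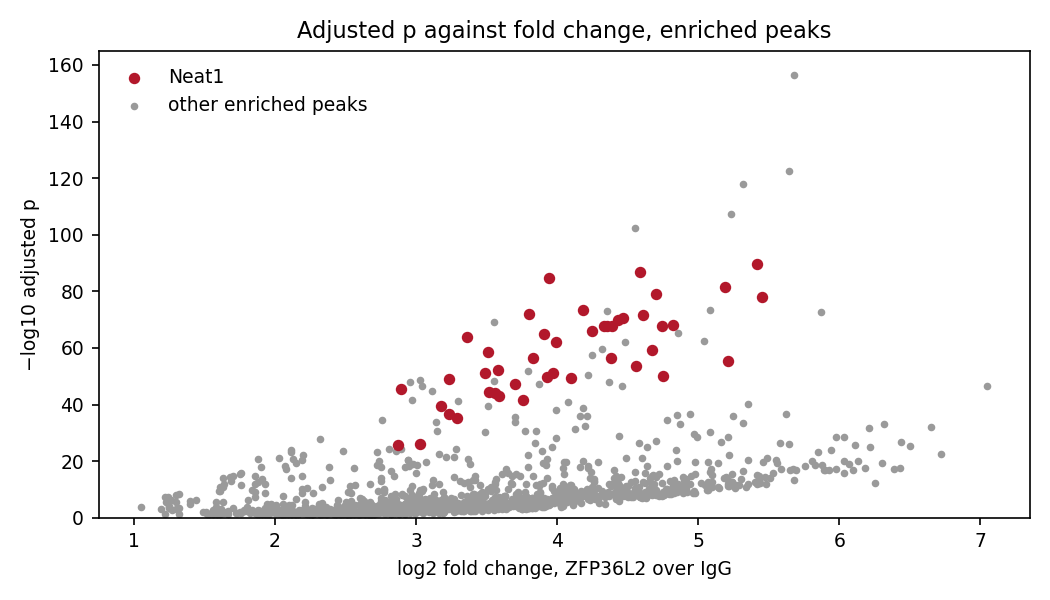
The −log10 adjusted p (vertical axis) against the log2 ratio of ZFP36L2 over IgG (horizontal axis) for the 44 Neat1 peaks (red) and the 1187 other enriched peaks (grey). The Neat1 peaks run from 25.73 to 89.50 on the vertical axis, above most other peaks of the same fold change.

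Other genes with many peaks were seldom enriched throughout. Among 1417 gene names with 10 or more peaks, 1170 had no enriched peak, 8 had at least 50% of their peaks enriched, and 2 had all of them enriched, Neat1 and Anp32b. By the share of peaks enriched, the 3 names nearest to Neat1 were Anp32b, an acidic nuclear phosphoprotein gene, Cyp11a1, the enzyme that starts steroid synthesis, and Canx, the chaperone calnexin of the endoplasmic reticulum. Their shares were 14 of 14, 33 of 35 (94.3%) and 12 of 14 (85.7%). Joined where they touch, these peaks made fewer separate regions, 4 for Anp32b, 15 for Cyp11a1 and 7 for Canx, against 28 for Neat1. By the authors' deposited table, the median log2 fold change was 3.98 for Neat1, 1.86 for Anp32b, 4.20 for Cyp11a1 and 1.88 for Canx. The lowest peak of Cyp11a1 stood at 0.73 by the authors' deposited table, below the lowest of Neat1 at 2.87. By kind of site the 4 differed, since all Anp32b peaks were coding, all Cyp11a1 peaks intronic and Canx peaks spread over 4 classes. The likeness is that of 1 comparison of 2 antibodies and was not tested.

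The genes beside Neat1 had few peaks. Malat1, the abundant nuclear speckle RNA whose gene lies 22036 bases away, had no peak in the table used here. Frmd8, the neighbour on the other side, had 1 peak in its 3′ UTR with 0.95 by the authors' deposited table, which was not called.

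Other nuclear noncoding RNAs had peaks in both directions. Of a list of 30, 18 had a peak. Besides Neat1, 2 of 17 had an enriched peak (11.8%, against 5.04% of all gene names) and 5 of 17 a depleted one (29.4%, against 17.3%). By peaks, 5 of their 90 were enriched (5.56%, against 2.22% of all peaks) and 10 were depleted (11.1%, against 5.44%), with a median log2 fold change of -1.10 by the authors' deposited table, against -1.06 over all peaks. The enriched ones belonged to Meg3 and Airn. Meg3 had 3.55, 3.28 and 2.95 in 3 of its 4 peaks by the authors' deposited table and -2.18 in the fourth, which was depleted (adjusted p = 0.030). Airn had 3.59 (adjusted p = 4.6e-07) and 2.63 (adjusted p = 7.8e-07) in 2 of 20 peaks by the authors' deposited table, and its other 18 peaks were not called.

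Depleted peaks were found in Kcnq1ot1, which silences an imprinted domain, in Ftx and Jpx, both RNAs of the X-inactivation centre, and in Dleu2 and Meg3. In the authors' deposited table the lowest value among them was -5.04 (adjusted p = 7.1e-10) in Kcnq1ot1, depleted in 4 of 6 peaks. The lowest of Jpx was -3.70 (adjusted p = 0.0021) and the lowest of Ftx was -3.61 (adjusted p = 0.0012), each depleted in 2 of 3 peaks, per the authors' deposited table. The depleted peaks of Jpx touch each other, as do those of Ftx and 2 of the 4 in Kcnq1ot1. The depleted Dleu2 peak, 1 of 9, had -2.49 (adjusted p = 0.045) by the authors' deposited table. Xist, the RNA that coats the inactive X chromosome, had 2 peaks, with -2.02 and 1.29 by the authors' deposited table, neither called. Per kb of gene span, introns included, Neat1 had 2.12 peaks, H19 1.91 and Snhg12 1.28, while each of the other 15 RNAs had fewer than 1.

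**Figure D5:**
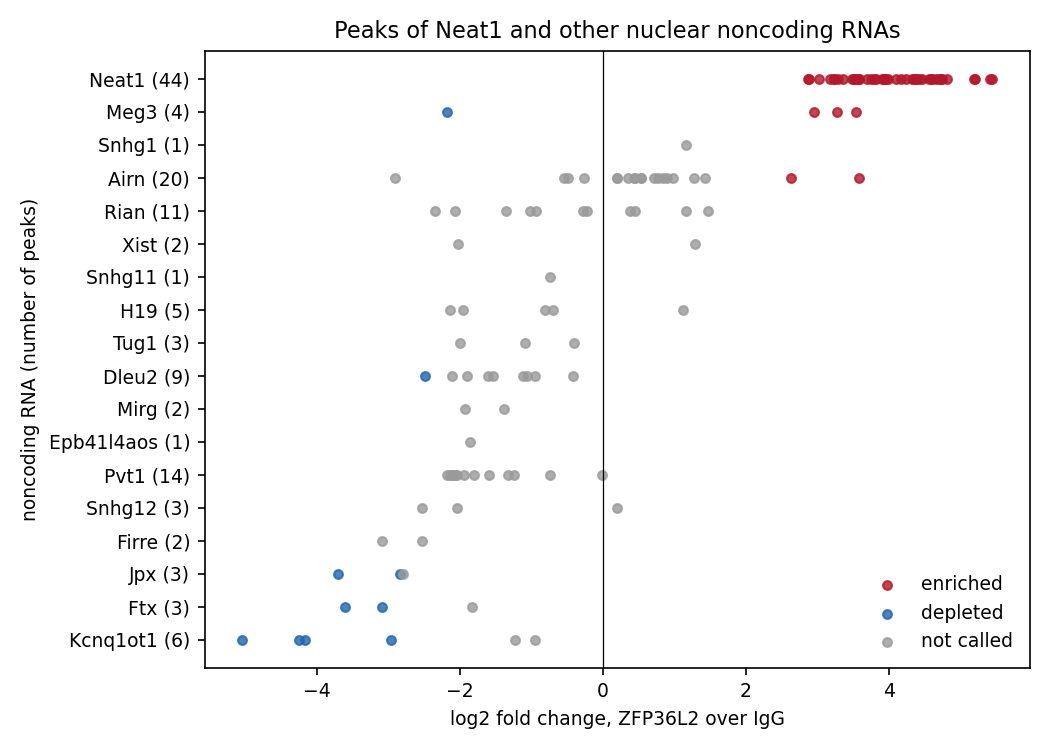
Log2 fold change of ZFP36L2 over IgG (horizontal axis) of each peak of 18 nuclear noncoding RNAs, 1 row per RNA with its number of peaks, ordered by median; red points are enriched, blue points depleted and grey points not called. All 44 Neat1 points lie right of 2.5, while the other RNAs spread over both sides of 0.

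Some genes of paraspeckle proteins had an enriched peak, mostly 1 among several. The list also holds Slc7a2, the source of a paraspeckle RNA and not of a paraspeckle protein. Of 33 genes on the list, 32 had a peak, 6 had an enriched peak (18.8%, against 5.04% of all gene names) and 2 a depleted one (6.25%, against 17.3%). By peaks, 7 of 145 were enriched (4.83%, against 2.22%) and 3 depleted (2.07%, against 5.44%), with a median log2 fold change of -0.40 by the authors' deposited table.

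Of the core proteins that Neat1_2 holds, Sfpq, Pspc1 and Nono encode the DBHS family. Both peaks of Sfpq were enriched, an intronic one with 2.65 (adjusted p = 1.4e-05) and a coding one with 2.41 (adjusted p = 0.0025) by the authors' deposited table. Pspc1 was enriched in 1 of 12 peaks, an intronic one, with 2.82 (adjusted p = 1.8e-08) by the authors' deposited table. The 3 peaks of Nono had -2.14 to -0.94 by the authors' deposited table and were not called. Thus both Sfpq peaks were below the lowest Neat1 peak, and the family did not move as one.

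The other enriched members of the list each had 1 such peak. Dazap1, an RNA-binding protein that paraspeckle formation requires in human cells, had 5.30 (adjusted p = 1.9e-14) in its 5′ UTR by the authors' deposited table. Taf15, an RNA-binding protein gene, had 5.02 (adjusted p = 6.9e-13) in a coding peak, per the authors' deposited table. The heights of these enriched peaks lay within the range of Neat1, and their adjusted p-values were larger than any of Neat1. Over all 6 peaks of Dazap1 the median was -0.88, and over all 5 of Taf15 it was 0.05, by the authors' deposited table. Hnrnpul1 had 3.52 (adjusted p = 4.8e-06) in 1 of 15 peaks and Hnrnph1 had 2.23 (adjusted p = 0.030) in 1 of 4, both coding, by the authors' deposited table. Hnrnph3, a ribonucleoprotein gene, was depleted in 2 touching peaks of its 3, the lower at -3.51 (adjusted p = 2.6e-04) by the authors' deposited table. Ewsr1, an RNA-binding protein gene, was depleted in 1 of 9, at -2.84 (adjusted p = 0.0085), by the authors' deposited table. Slc7a2, the gene whose nuclear transcript Ctn is held in mouse paraspeckles, had 8 peaks between -2.12 and 0.07 by the authors' deposited table, none called.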

How the data were processed

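The authors deposited 1 table with a row per peak. The authors gave fold changes between ZFP36L2 and IgG on the log2 scale, read here as ZFP36L2 over IgG from the table's name, and raw and adjusted p-values as −log10 values. Per the submitters' processing notes, the tools were STAR 2.7.7a, cutadapt 3.2, DESeq2 1.34.0 and UMI-tools 1.1.1, with build mm10 and no role or order given. Peak calling, any pooling of libraries and any use of the inputs are not stated in the labels, header or notes used here. Recomputed by Benjamini-Hochberg over all peaks, the adjusted values of Neat1 peaks came within 0.0082 of the deposited ones on the −log10 scale.

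Peaks were selected by gene name, called where the adjusted p was under 0.05 and the log2 fold change was at least 1 in size, placed along the RNA with the RefSeq gene bounds, and joined where they touch (Python 3.11.15, pandas 2.3.3). The functions that call and join peaks were tested on simulated data. No test across libraries was possible. The members, lists and thresholds were chosen with earlier results of these data known. The rule for named peaks gave the 5 smallest adjusted p-values, the 5 largest and 5 smallest log2 fold changes, the ends, peaks with 2 names, all peaks of the shared part, list genes with a called peak and the neighbouring genes. The naming of any other peak followed sight of its value. The plan left the RNA undivided where no annotation gave the end of Neat1_1. The 3.2 kb boundary departs from that plan and was added after the data were seen. A planned count of AU-rich motifs was left out, no genome sequence being used here.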

Additional observations from a re-analysis of the deposited data

How the results depend on the processing

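The count of 44 enriched Neat1 peaks was 44 at an adjusted p under 0.01, with a fold threshold of 2 on the log2 scale and after centring on the median of all peaks. It was 42 of 42 with Neat1 as the sole name, and 28 of 28 regions once touching peaks were joined. None of these settings could leave a Neat1 peak uncalled. By the authors' deposited table, the lowest log2 fold change was 2.87 and the largest adjusted p was 1.9e-26. The median log2 fold change of 3.98 was 4.04 with Neat1 as the sole name, 4.29 for joined regions, 3.94 weighted by length and 5.04 after centring. The long-only minus shared difference of 0.47 was 0.45 with the sole name, 0.55 for joined regions, 0.35 for means, 0.60 without 500 bases on each side of the boundary and 0.47 in the first 12 kb alone, a setting added with the data in view. The difference in peaks per kb, -7.47, was -4.32 for joined regions, -6.85 with the sole name and -6.73 in the first 12 kb. Genes of the paraspeckle list with an enriched peak numbered 5 at an adjusted p under 0.01, where Hnrnph1 was lost, and 6 under the other alternatives. The count of 3 noncoding RNAs with an enriched peak, Neat1 included, held under the same alternatives. The alternatives on the AU-rich motif were not run. No paired analysis was possible because the table has no columns for libraries. Depth is unknown, and 1 IgG library limits every value.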
